A study of Homo sapiens with 9 samples.

Results

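The comparison described here set ARNT depletion directly against BMAL1 depletion in A498 cells, a cell line established from clear cell renal cell carcinoma (ccRCC). It used 6 of the 9 RNA sequencing libraries of the series, namely all 3 libraries with an shRNA against ARNT (shARNT) and all 3 with an shRNA against BMAL1 (shBMAL1). The other 3 libraries carried a control shRNA without knockdown (shControl). They took no part in the contrast. They entered the shared estimate of the spread and served to place a gene above or below the control level. The labels give the genotypes as WT for shControl, ARNT knockdown for shARNT and BMAL1 knockdown for shBMAL1. All groups received lentivirus with a pLKO.1 vector and were selected with puromycin. The methods name 1 ARNT hairpin and do not say which of their BMAL1 hairpins was used in A498, and the labels name no second hairpin per target, so an effect of a hairpin other than on its target cannot be told apart from depletion.

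ARNT and BMAL1 are related bHLH-PAS transcription factors that bind DNA as dimers with a second family member. ARNT pairs with the hypoxia-inducible factors HIF1α and HIF2α at hypoxia response elements, and A498 cells lack functional VHL, the ligase component that normally marks HIF for degradation. BMAL1 pairs with CLOCK at E-box elements and drives the circadian clock, whose repressors PER, CRY and REV-ERB feed back on it. The series was designed to ask how much each of the 2 proteins contributes to HIF2α-driven transcription.

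Library totals lay between 35269870 and 36099096 counts. Scaling by trimmed means of M values (TMM) gave factors of 1.10 to 1.11 in shARNT, 0.961 to 0.971 in shBMAL1 and 0.932 to 0.944 in shControl. Levels are given as CPM, the counts of a gene scaled to a common library size. The kidney epithelial keratins KRT8 and KRT18 had at least 24576 and 15740 counts in every library, the kidney transcription factors PAX8, PAX2 and LHX1 were all present, and EPCAM stayed at 2 to 17 counts. All 4 endothelial markers had at most 9 counts per library, and of the 5 blood cell markers CD3E and HBB had none. The summed level of the 4 fibroblast markers was 40.7 to 50.7 CPM in shARNT, 34.2 to 37.3 in shBMAL1 and 231 to 245 in shControl, nearly all of it COL1A1, while LUM had no count and DCN at most 10.

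The depletions differed from each other across most of the transcriptome. Genes for the extracellular matrix, its receptors, complement, metal handling, HIF targets and endoplasmic reticulum folding were lower in shARNT than in shBMAL1, and genes for DNA replication, splicing, ribosome assembly, nuclear transport and the proteasome were higher. Of 15551 genes tested, shARNT had 6390 called lower (41.1%) and 6240 called higher (40.1%) than shBMAL1 at an adjusted p under 0.1 (quasi-likelihood test of edgeR, p-values adjusted over all genes after Benjamini and Hochberg, as for every adjusted p given here). At least 2-fold differences were called lower for 2916 genes (18.8%) and higher for 1873 genes (12%). This last split depended on the scaling, and library size alone gave 2386 lower and 2618 higher. Under library size alone the median log2 difference of all genes was 0.18, against -0.01 under TMM, so a list is read here against the median of all genes. A count of list members called lower or higher is likewise to be read beside the 41.1% and 40.1% of all genes. The median absolute log2 difference was 0.64 and the median standard error 0.0877. The labels call the 3 libraries of a group biological replicates without naming separate infections, so p-values measure the spread between these libraries. Fewer cells of a kind and less RNA per cell cannot be told apart in bulk libraries.

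**Figure D1:**
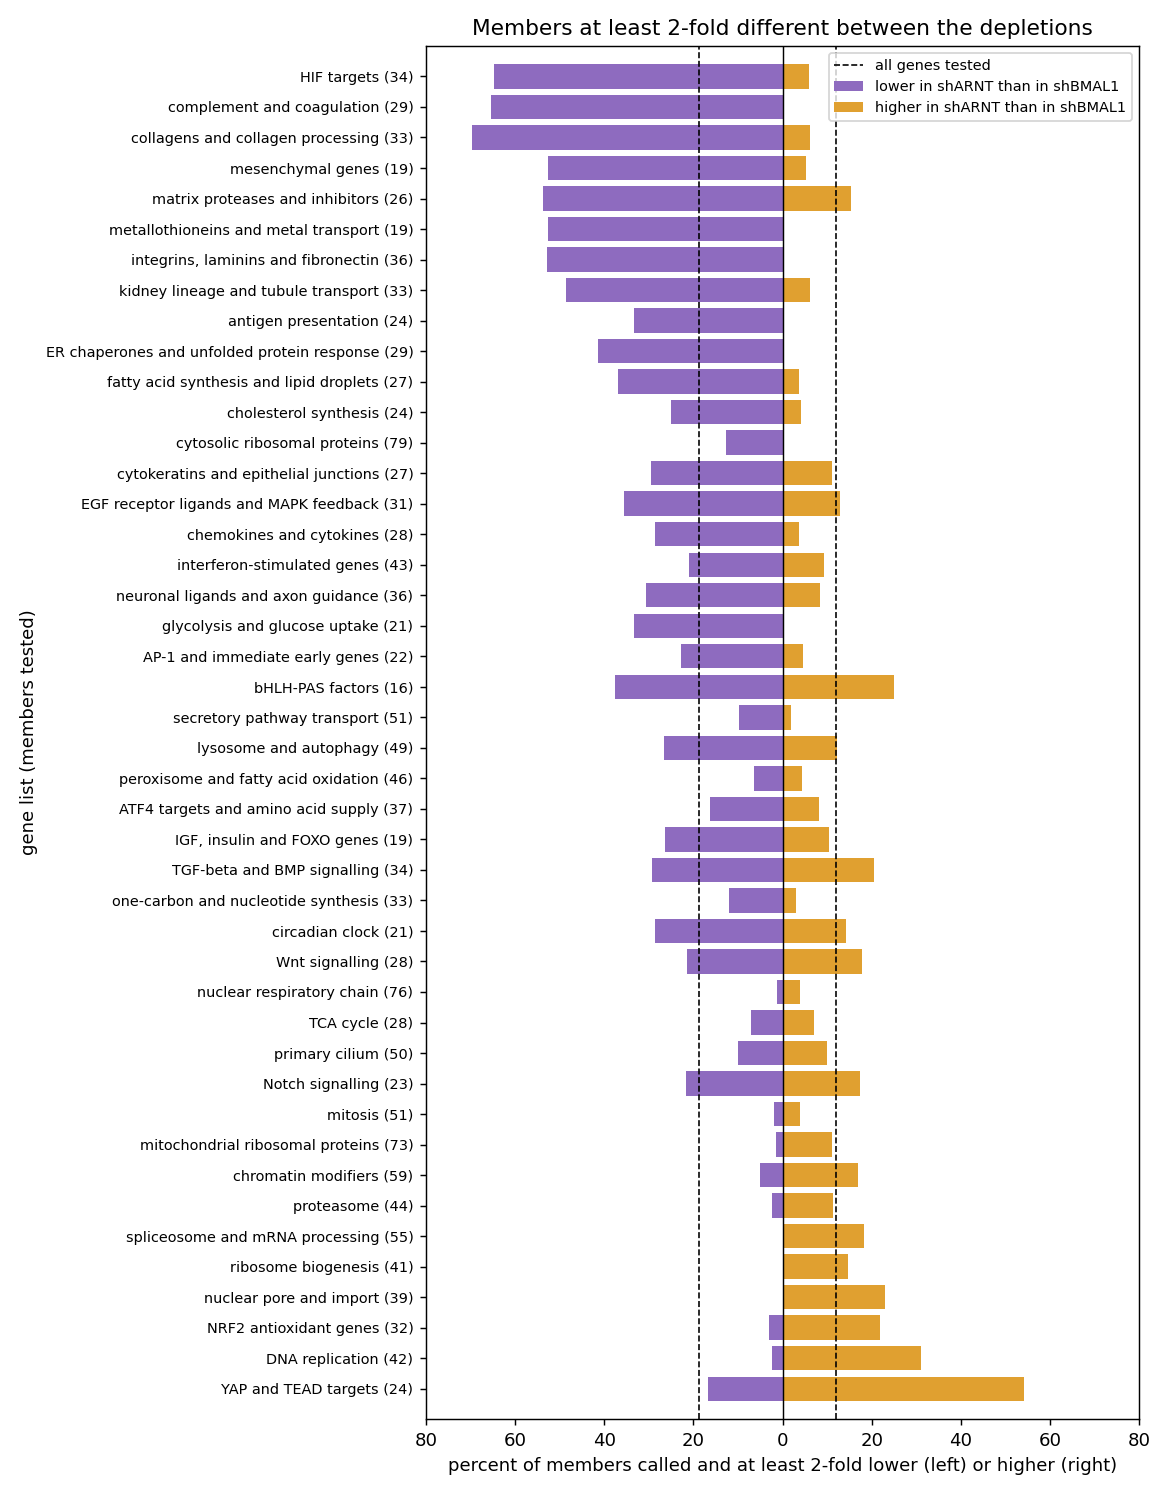
Percent of the tested members of 44 gene lists (number in brackets) that were called and at least 2-fold lower (left) or higher (right) in shARNT than in shBMAL1, with dashed lines at 18.8% and 12% for all genes tested. Collagens, complement and HIF targets reach furthest to the left, and YAP and TEAD targets and DNA replication furthest to the right.

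**Figure D2:**
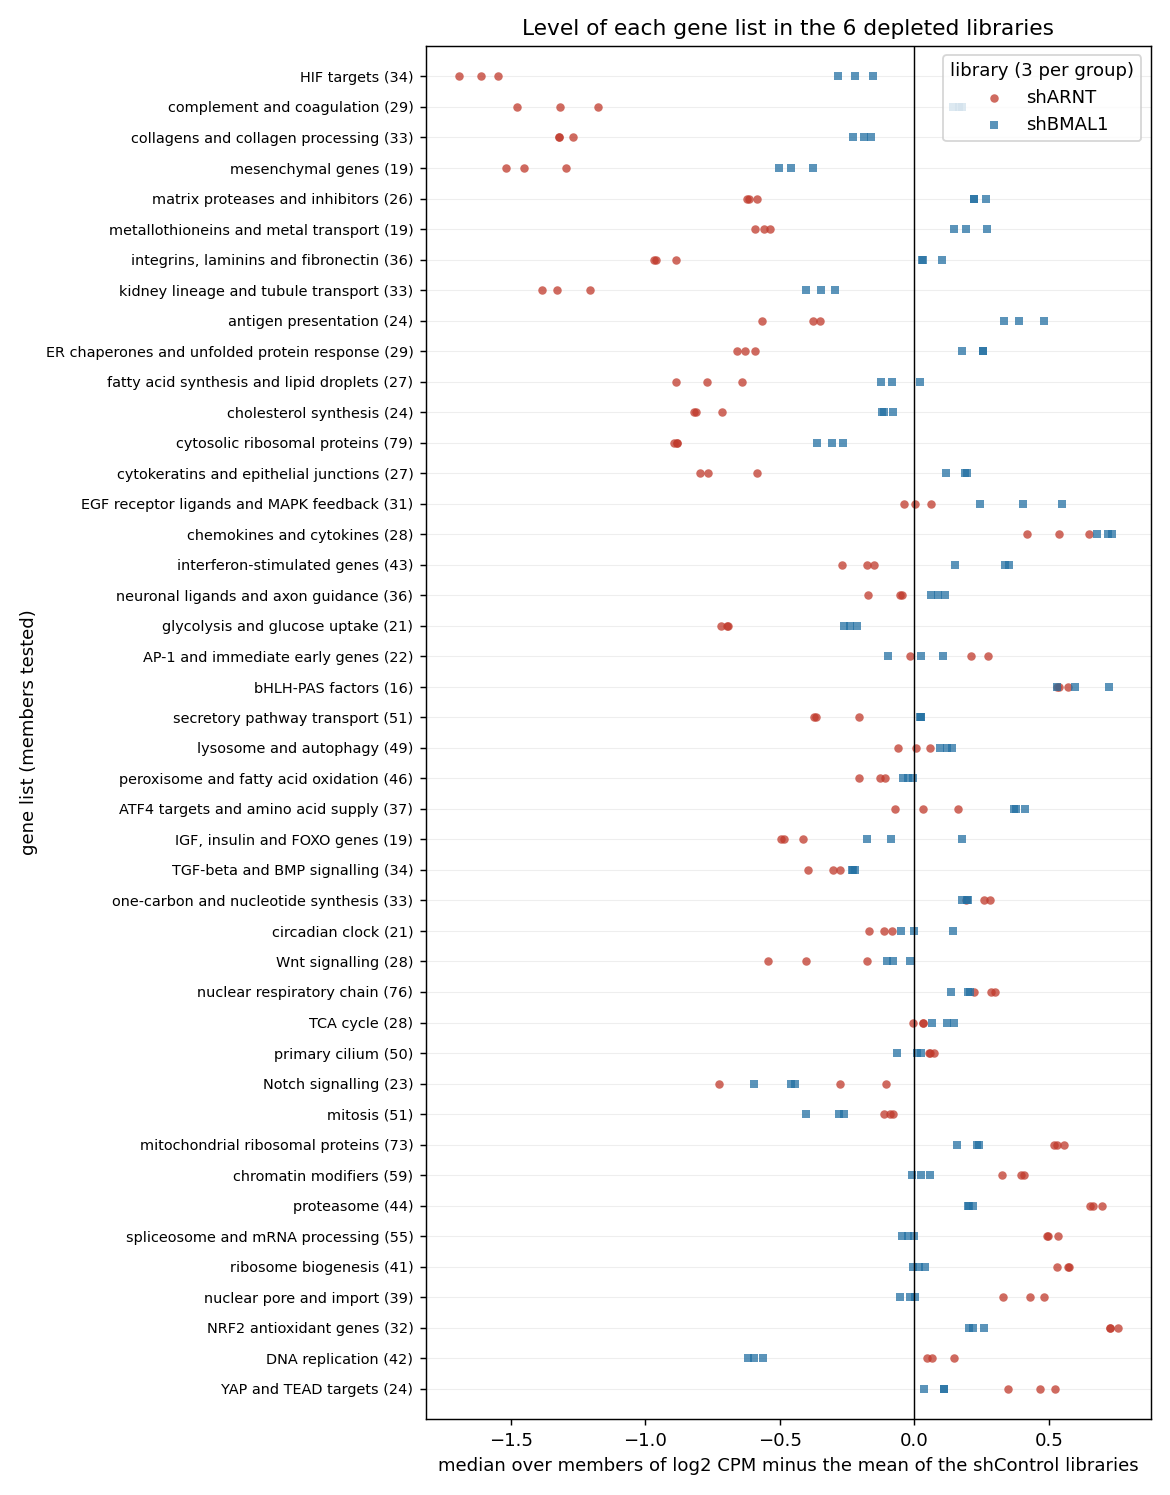
Median over the members of each list of the log2 CPM minus the mean of the shControl libraries, with a point for each of the 3 shARNT and 3 shBMAL1 libraries. For DNA replication the shBMAL1 libraries lie between -0.62 and -0.56 and the shARNT libraries near 0, while for HIF targets it is the shARNT libraries that lie far from 0.

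Each targeted transcript was lower in the libraries that carried its own shRNA. *ARNT* (chromosome 1, 150782189 to 150849184, GRCh37) had 9.32, 9.13 and 9.95 CPM in the shARNT libraries and 33.0, 33.3 and 30.5 CPM in the shBMAL1 libraries, a log2 difference of -1.77 (SE 0.0677, adjusted p = 2.77e-15). The BMAL1 transcript, which the table lists as *ARNTL* (chromosome 11, 13298199 to 13408813), had 23.9, 25.1 and 22.5 CPM in shARNT and 5.41, 5.54 and 4.12 CPM in shBMAL1 (2.25, SE 0.0983, adjusted p = 2.43e-14). Neither pair of groups overlapped. *ARNT* was below shControl (50.5 ± 2.24 CPM, SD, n = 3) in both depletions, by -2.41 in shARNT and -0.65 in shBMAL1 on the log2 scale. Against shControl (mean 16.3 ± 0.395 CPM, SD, n = 3), *ARNTL* was called higher in shARNT and lower in shBMAL1.

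The bHLH-PAS list, which holds both targets, had 9 of 16 tested genes lower in shARNT (56.2%) and 6 higher (37.5%). Over all genes the shares were 41.1% and 40.1%. *EPAS1*, which encodes HIF2α, had 70.4, 75.6 and 76.8 CPM in shARNT and 225, 219 and 254 CPM in shBMAL1 (log2 difference -1.65). Both groups lay below shControl (345 ± 18.6 CPM), shARNT further. *NPAS2*, a paralog of *CLOCK*, had 22.3, 24.6 and 22 against 62.9, 63.2 and 65.7 CPM (-1.48, adjusted p = 3.12e-15) and stood on opposite sides of shControl, at -0.53 in shARNT and 0.95 in shBMAL1 on the log2 scale. *ARNT2* differed by -1.11, *CLOCK* by 0.39, and *AHRR*, the repressor of the aryl hydrocarbon receptor, by 1.46. *HIF1A* differed little (-0.11, adjusted p = 0.0254), with overlapping libraries, and its difference turned to 0.08 under library size alone. *ARNTL2*, which encodes BMAL2, was not called (0.12, adjusted p = 0.256), though scaling by library size alone gave it a call (0.31).

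**Figure D3:**
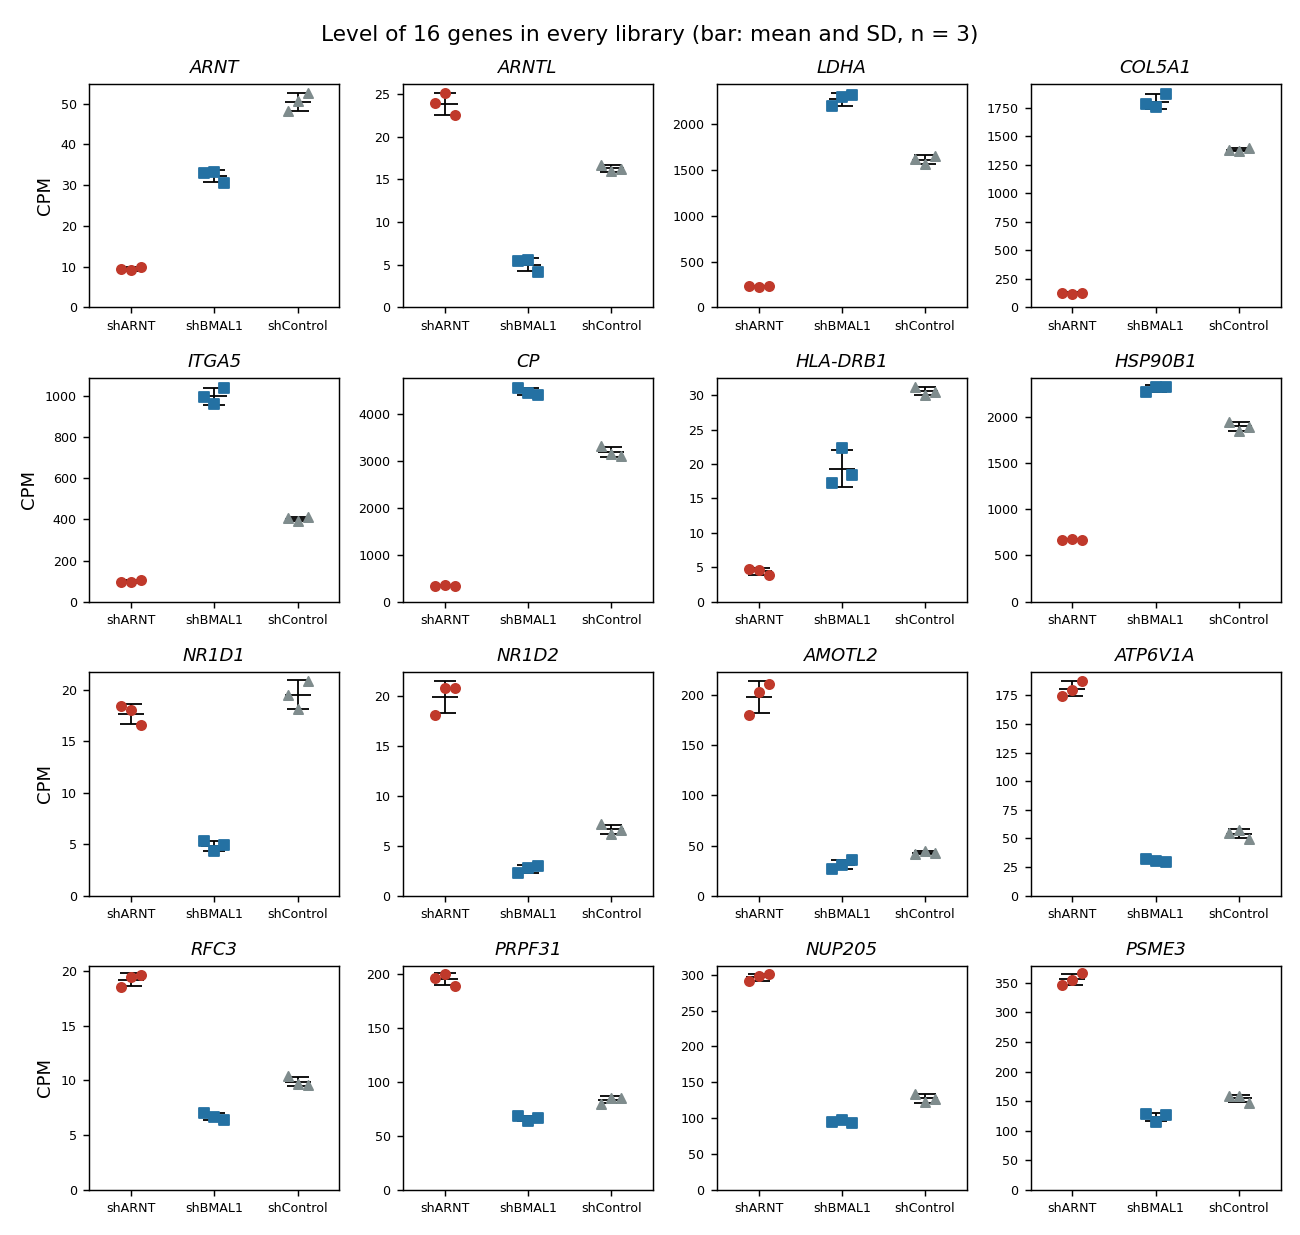
CPM of 16 genes in every library of shARNT, shBMAL1 and shControl, each point a library and each black bar the mean with its SD (n = 3). In every panel the 3 shARNT points are clear of the 3 shBMAL1 points. Apart from *ARNT* and *ARNTL*, the genes were list members named for large differences, so this clearance largely follows from the choice. The shControl points lie between the groups in every panel except those of *ARNT*, *HLA-DRB1* and *NR1D1*.

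The 10 genes furthest lower in shARNT were led by *IGSF10* and *IGFBP3*. *IGFBP3* (chromosome 7, 45951844 to 45961473), which binds insulin-like growth factors in the extracellular space, had 83.3, 84.6 and 84.5 CPM in the shARNT libraries. In the shBMAL1 libraries it had 4565, 4791 and 4793 CPM, 56.1-fold more (log2 difference -5.81, SE 0.0387, adjusted p = 6.49e-27). The shControl libraries stood higher still, at 8248, 7989 and 8321 CPM. *PTGS2*, the inducible cyclooxygenase that starts prostaglandin synthesis, had 1.51, 0.935 and 1.49 CPM in shARNT and 70.0, 66.5 and 60.9 CPM in shBMAL1 (-5.64, adjusted p = 7.31e-20). *CA9*, the hypoxia-induced carbonic anhydrase of the cell surface, had 0.833, 1.09 and 1.26 CPM in shARNT and 29.8, 32.2 and 28.6 CPM in shBMAL1 (-4.83, adjusted p = 4.93e-19). *AGTR1*, the angiotensin II receptor, was covered by 18, 9 and 17 reads in shARNT and by 612, 593 and 651 in shBMAL1. The other genes of the 10 furthest lower were *IGSF10* (-5.97), the matrix proteases *ADAMTS14* (-5.35) and *MMP28* (-4.94), the secreted zinc-alpha-2-glycoprotein *AZGP1* (-5.11), the secretory granule protein *PTPRN* (-5.01) and the semaphorin *SEMA5B* (-4.88). Their shARNT libraries had few reads, down to 5 counts for *SEMA5B*, except *PTPRN* with 17.5, 17.7 and 16.6 CPM against 545, 562 and 565 CPM in shBMAL1.

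In the other direction the 10 furthest genes reached less far. *MMP15* (chromosome 16, 58059658 to 58080805), a membrane-anchored matrix metalloprotease, had 15.8, 14.9 and 19.4 CPM in shARNT and 0.936, 0.987 and 0.676 CPM in shBMAL1, a log2 difference of 4.26 (SE 0.166, adjusted p = 3.69e-15). *PIDD*, a protein with a death domain, had 193, 162 and 165 CPM in shARNT and 17.3, 17.2 and 16.1 CPM in shBMAL1 (3.36, adjusted p = 1.5e-17). *SFRP4*, a secreted Wnt antagonist, had 27.3, 27.7 and 36.4 CPM in shARNT and 2.19, 3.42 and 2.41 CPM in shBMAL1 (3.51, adjusted p = 2.07e-14). The naming rule took only genes whose compared libraries did not overlap. *KIAA1211* (4.06), *LOC100288144* (3.86), *CORO6*, a coronin of the actin cytoskeleton (3.24), *C9orf116* (3.19), *SLITRK4*, a neuronal membrane protein (3.09), and *ZNF367* (3.01) completed the list with *FBXL19-AS1* (3.32). The last is an antisense transcript, and since the counting is not stated to use strand, its reads cannot be told apart from those of its sense partner.

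The extracellular matrix and its receptors were among the functions with the lowest medians in shARNT. Of 33 collagen and collagen-processing genes tested, 25 were lower in shARNT, 5 were higher, and 23 were at least 2-fold lower (69.7%, against 18.8% of all genes). The median log2 difference of the list was -1.32. *COL5A1*, a fibril-nucleating collagen chain, had 126, 118 and 131 CPM in shARNT and 1787, 1753 and 1874 CPM in shBMAL1 (-3.85, SE 0.0429, adjusted p = 1.45e-23). *LOXL2*, a lysyl oxidase that crosslinks collagen, had 266, 287 and 304 CPM in shARNT and 3579, 3699 and 3510 CPM in shBMAL1 (-3.65). The shARNT libraries lay far below shControl for both genes, while the shBMAL1 libraries lay above it for *COL5A1* (1383 ± 11 CPM in shControl) and slightly below it for *LOXL2* (4071 ± 60.6 CPM). *P4HA3*, a collagen prolyl hydroxylase, differed by -3.98. *SERPINH1*, the collagen chaperone HSP47, went the other way, with 526, 563 and 587 CPM in shARNT and 136, 142 and 136 CPM in shBMAL1 (2.02, adjusted p = 1.68e-19). Here it was the shBMAL1 libraries that stood apart from shControl (522 ± 11.3 CPM). *COL27A1* (1.55) and *COL5A2* (0.61) were also higher in shARNT.

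Receptors for the matrix followed the collagens. Of 36 integrin, laminin and fibronectin genes, 30 were lower in shARNT, 19 of them at least 2-fold, and none was at least 2-fold higher (median -1.06). *TNC*, the matrix glycoprotein tenascin C (chromosome 9, 117781854 to 117880486), had 5.76, 5.66 and 7.51 CPM in shARNT and 133, 128 and 130.5 CPM in shBMAL1 (-4.37, SE 0.0822, adjusted p = 3.09e-20). *ITGA5*, the fibronectin receptor subunit, had 94.2, 96.4 and 106 CPM in shARNT and 998, 960.0 and 1042 CPM in shBMAL1 (-3.34, adjusted p = 4.77e-22). *ITGA2*, a collagen receptor subunit, had 25.2, 25.6 and 27.7 CPM in shARNT and 152, 149 and 166 CPM in shBMAL1 (-2.57). For all 3 genes shControl lay between the groups, with shARNT below it and shBMAL1 above it. Of the 2 higher members, *LAMA1* differed by 0.18 and its libraries overlapped.

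Matrix proteases were divided. Of 26 tested, 18 were lower in shARNT and 7 higher (median -1.14). *ADAM12* (-3.01) and *ADAMTS12* (-1.95) were lower beside *MMP28*. *MMP24* (2.60) and the inhibitor *TIMP2* (1.13) were higher beside *MMP15*. *MMP24* had 20.3, 22.1 and 24.4 CPM in shARNT, near the 23.0 ± 1.61 CPM of shControl, and 4.36, 3.54 and 3.09 CPM in shBMAL1. Of 19 mesenchymal genes, 14 were lower in shARNT (73.7%, against 41.1% of all genes) and 3 higher (15.8%, against 40.1%). The intermediate filament *VIM* was lower (786, 807 and 843 CPM against 4245, 4598 and 4085 CPM, -2.41), as was the matrix protein *POSTN* (-2.85). The transcription factor *SNAI2* was also lower (-3.60), with only 7, 13 and 24 reads in shARNT. Among the higher members were *MYL9* (0.44) and *TPM2* (0.28), the latter with overlapping libraries. Of 27 keratin and epithelial junction genes, 15 were lower and 5 higher (median -0.52), with *DSC2* (-3.41), *CDH16* (-2.89) and *CDH6* (-2.61) lower and *TJP3* (2.70), *KRT80* (2.53) and *CLDN1* (2.50) higher in shARNT. The fibroblast markers *LUM* and *DCN* were at or near 0 throughout. The summed fibroblast markers lay higher in shARNT (40.7 to 50.7 CPM) than in shBMAL1 (34.2 to 37.3 CPM). Nearly all of that sum was *COL1A1*, itself a collagen gene, and the fibroblast content was not tested.

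Hypoxia targets gave the lowest median of the 44 lists. Of 34 HIF targets tested, 27 were lower in shARNT than in shBMAL1, 22 of them at least 2-fold (64.7%), and 3 were higher (median -1.47). The per-library medians relative to shControl were -1.69, -1.55 and -1.61 in shARNT and -0.22, -0.28 and -0.15 in shBMAL1. The medians of all 6 libraries thus lay below the control, and the groups did not overlap. Members were divided in shBMAL1, 18 being called lower and 10 higher than shControl, while in shARNT 28 were lower and 3 higher. *EGLN3*, an oxygen sensor that hydroxylates HIF, had 35.5, 39.7 and 34.4 CPM in shARNT and 557, 596 and 612 CPM in shBMAL1 (-4.01, SE 0.0533, adjusted p = 1.75e-22). Its shControl level was 394 ± 7.79 CPM, so that shBMAL1 stood above and shARNT below the control. The 3 targets that were higher in shARNT were *PFKFB3* (1.10) and *PFKFB4* (0.67), both regulators of glycolytic flux, and the mitochondrial protein *FAM162A* (1.03).

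Glycolysis as a whole was less displaced than the HIF targets, with 14 of 21 genes lower in shARNT and 4 higher (median -0.35). *LDHA*, which makes lactate from pyruvate (chromosome 11, 18416107 to 18429972), had 229, 228 and 231 CPM in shARNT and 2189, 2290 and 2316 CPM in shBMAL1 (-3.30, SE 0.0371, adjusted p = 1.53e-23). Its shControl level of 1609 ± 47.0 CPM lay between the groups. *ALDOC* (-2.65) and the glucose transporter *SLC2A3* (-2.33) were lower in shARNT, while the lactate exporter *SLC16A3* (0.89), *PGAM1* (0.57) and *ENO1* (0.30) were higher.

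Promoter windows of *CA9*, *LDHA* and *TEF*, from the HIF, glycolysis and clock lists, are shown because ARNT and BMAL1 dimers are known to bind related letters. The sequences are from RefSeq (GRCh38.p14) and lie within the 250 bases before the annotated start. Capitals mark the core letters ACGTG or GCGTG of a hypoxia response element on either strand. The E-box CACGTG reads the same on both strands and contains a core, so the motifs overlap. Of 27305 promoters in the table, 43.1% held a core and 6.49% held CACGTG in these 250 bases. The *CA9* window (chr9:35673885-35673927, plus strand) holds 1 core, which starts 18 bases before the gene. The *LDHA* window (chr11:18394353-18394519, plus strand) holds 2 copies of CACGTG and 5 core matches, since each CACGTG counts on both strands. That of *TEF*, a clock output gene that was higher in shARNT, holds 1 CACGTG (chr22:41367235-41367290, plus strand). No core was found in these letters for *EGLN3*, *NR1D2* or *PRMT1*. A match describes letters only.
CA9: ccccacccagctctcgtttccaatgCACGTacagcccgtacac
LDHA: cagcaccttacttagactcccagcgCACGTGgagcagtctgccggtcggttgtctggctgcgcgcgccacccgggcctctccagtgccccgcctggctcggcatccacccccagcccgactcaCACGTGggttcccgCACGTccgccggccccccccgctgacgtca
TEF: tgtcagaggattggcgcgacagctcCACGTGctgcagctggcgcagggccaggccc

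Complement, coagulation and metal handling genes were also mostly lower in shARNT. Of 29 complement and coagulation genes, 24 were lower, 19 of them at least 2-fold (65.5%), and 2 were higher (median -1.45). *CFB*, complement factor B, had 7.67, 6.70 and 7.48 CPM in shARNT and 77.4, 89.9 and 78.3 CPM in shBMAL1 (-3.49, adjusted p = 3.44e-19), with 49.2 ± 2.75 CPM in shControl between them. *SERPING1*, the inhibitor of complement C1 (-3.65), and the adhesion protein *VTN* (-3.03) were below shControl in both depletions and further below in shARNT. The cell surface inhibitor *CD46* (0.93) and *C3* (0.19) were the 2 higher members. Of 19 genes for metallothioneins and metal transport, 15 were lower in shARNT and 2 higher, the latter being the regulators *MTF1* (0.64) and *IREB2* (0.62). *CP*, the copper-carrying ferroxidase ceruloplasmin, had 334, 361 and 332 CPM in shARNT and 4553, 4448 and 4407 CPM in shBMAL1 (-3.71, SE 0.0407, adjusted p = 1.28e-23). Its shControl libraries had 3314, 3144 and 3105 CPM, between the groups. The metalloreductase *STEAP1* (-2.75) and the zinc importer *SLC39A10* (-2.53) were lower in shARNT. Metallothionein genes are near-identical copies, so how reads were divided among them is uncertain.

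The medians of the antigen presentation list lay on different sides of the control, while its members were divided. The per-library medians of its 24 genes relative to shControl were -0.38, -0.35 and -0.56 in shARNT and 0.39, 0.33 and 0.48 in shBMAL1. In the direct contrast 17 were lower in shARNT and 5 higher (median -0.88). The class II genes *HLA-DRA* (-2.34), *HLA-DRB1* (-2.13) and *CD74* (-2.05) were the furthest lower, *HLA-DRB1* with 4.72, 4.65 and 3.85 CPM in shARNT and 17.3, 22.3 and 18.4 CPM in shBMAL1. These genes have near copies, so their counts are uncertain. Both groups lay below shControl (30.6 ± 0.574 CPM) for *HLA-DRB1*. The higher members included the class I activator *NLRC5* (0.89), the peptide transporter *TAP1* (0.88) and the immunoproteasome subunit *PSMB9* (0.87). Each of them was above shControl in both depletions. Interferon-stimulated genes showed a similar division, with 26 of 43 lower (60.5%) and 13 higher (30.2%, median -0.42). At least 2-fold lower were 20.9%, against 18.8% of all genes. *IFI6* (-3.48) and the antiviral tether *BST2* (-3.02) were lower, and the factor *STAT2* (0.71) and the GTPase *GBP1* (1.65) higher, in shARNT. *GBP1* had 57.9, 64.4 and 63.9 CPM in shARNT and 20.1, 20.3 and 18.8 CPM in shBMAL1 with no overlap. Among 28 cytokine and NF-kB genes, 15 were lower (53.6%) and 7 higher (25%) in shARNT, against 41.1% and 40.1% of all genes. They included *TNFSF10* (-2.38), *BIRC3* (-1.93) and *TNFAIP2* (1.39). The median of this list lay above shControl in both depletions, at 0.65 in shARNT and 0.707 in shBMAL1 on the log2 scale.

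Folding in the endoplasmic reticulum also separated the depletions. Of 29 chaperone and unfolded protein response genes, 23 were lower in shARNT and 4 higher (median -0.85), and 12 stood below shControl in shARNT and above it in shBMAL1. *HSP90B1*, the chaperone GRP94, had 669, 682 and 668 CPM in shARNT and 2271, 2330 and 2327 CPM in shBMAL1 (-1.78, SE 0.0328, adjusted p = 2.25e-20). The disulfide isomerase *PDIA3* (-1.69) and *CRELD2* (-1.63) followed it, while the chaperone *HYOU1* (0.81) and the stress sensor *ATF6* (0.64) were higher in shARNT. Secretory pathway transport was less displaced, with 32 of 51 genes lower and 11 higher (median -0.23). *KDELR3* (-2.46) and *SEC23A* (-1.92) led the lower genes, and *COPE* (1.30) the higher ones. Of 49 lysosome and autophagy genes, 27 were lower in shARNT and 19 higher (median -0.19). The proton pump subunits *ATP6V1A* (174, 179.9 and 188 CPM against 31.9, 30.6 and 29.8 CPM, 2.55) and *ATP6V0D1* (1.71) and the channel *MCOLN1* (1.49) were higher in shARNT, and the hydrolase *HEXA* (36.6, 35.4 and 36.6 CPM against 188, 194 and 182 CPM, -2.38), the autophagy protein *WIPI1* (-1.89) and the protease *CTSH* (-1.86) lower.

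Kidney genes were lower in shARNT for 22 of 33 tested and higher for 4 (median -0.90). The water and glycerol channel *AQP3* had 1.14, 1.19 and 0.957 CPM in shARNT and 15.1, 16.1 and 15.8 CPM in shBMAL1 (-3.84, adjusted p = 3.7e-16), on either side of shControl (5.36 ± 0.440 CPM). The scaffold protein *PDZD3* (-4.42) and *AZGP1* were below shControl in both. The lineage factor *PAX8* went the other way, with 95.7, 98.6 and 107 CPM in shARNT and 37.5, 39.9 and 44.8 CPM in shBMAL1 (1.30, adjusted p = 1.36e-13).

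Several functions of the nucleus were higher in shARNT than in shBMAL1. DNA replication had the largest median among them, with 32 of 42 genes higher, 13 of them at least 2-fold (31.0%, against 12% of all genes), and 5 lower (median 0.69). The per-library medians relative to shControl were 0.07, 0.15 and 0.05 in shARNT and -0.62, -0.59 and -0.56 in shBMAL1. The median of the shARNT libraries lay near the control, with members going both ways, 16 being called lower and 17 higher than shControl, while in shBMAL1 35 were lower and 2 higher. *RFC3*, a subunit of the clamp loader, had 18.6, 19.4 and 19.6 CPM in shARNT and 7.05, 6.62 and 6.41 CPM in shBMAL1 (1.52, SE 0.0857, adjusted p = 1.5e-12). The S-phase factor *E2F1* had 14.5, 17.2 and 17.8 CPM in shARNT and 6.29, 6.88 and 6.50 CPM in shBMAL1 (1.33, adjusted p = 3.7e-10), and *CCNE2*, a cyclin of the G1 to S transition, differed by 1.59. *RFC2*, another clamp loader subunit, was lower in shARNT (-1.25), as was *CHAF1B* (-0.35). Mitotic genes followed at a smaller distance, with 30 of 51 higher, 12 lower and a median of 0.30. *KIF23* (1.32), *ASPM* (1.07) and the kinase *AURKA* (0.80) were higher, and *UBE2C* (-1.25) and *TOP2A* (-0.71) lower. At least 2-fold differences were few in this list, 2 higher and 1 lower.

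Splicing, ribosome assembly and nuclear transport were also higher in shARNT than in shBMAL1. For these lists the shBMAL1 medians lay near shControl (-0.03 for splicing, 0.02 for ribosome biogenesis and 0.02 for nuclear pore and import) and the shARNT medians above it (0.50, 0.60 and 0.38). Of 55 splicing genes, 47 were higher in shARNT than in shBMAL1 and 4 lower. *PRPF31*, a component of the tri-snRNP, had 197, 200.0 and 189 CPM in shARNT and 68.6, 63.5 and 66.9 CPM in shBMAL1 (1.56, SE 0.0460, adjusted p = 3.82e-17), and *RBM39* (1.45) and *LUC7L3* (1.41) were close to it. *HNRNPA1* was the furthest lower (-0.89). Of 41 ribosome biogenesis genes, 31 were higher and 4 lower, led by *RRP12* (1.54), *UTP20* (1.49) and the pseudouridine synthase *DKC1* (1.27). Of 39 nuclear pore and transport genes, 28 were higher and 7 lower. *NUP205*, a scaffold of the pore, had 291, 298 and 301 CPM in shARNT and 94.6, 97.9 and 92.8 CPM in shBMAL1 (1.64, adjusted p = 4.85e-18). The import receptor *TNPO1* (1.56) and *RANGAP1* (1.40) were also higher, while the pore protein *NUP43* (-0.92) was the furthest lower.

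Chromatin modifiers (41 of 59 higher, 13 lower, median 0.40) included the DNA methyltransferases *DNMT3B* (1.48) and *DNMT1* (1.36) and the deacetylase *HDAC9* (2.20) on the higher side. *DNMT1* had 168, 175 and 184 CPM in shARNT and 69.1, 64.6 and 71.3 CPM in shBMAL1, which did not overlap. The remodeller *CHD3* (-1.57) and the acetyltransferase *KAT2B* (-1.64) were lower in shARNT.

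Genes of the machines that make and degrade proteins differed between the depletions, some lists being lower and some higher in shARNT than in shBMAL1. Against shControl, each list median had the same sign in both depletions. For cytosolic ribosomal proteins it was -0.877 in shARNT and -0.303 in shBMAL1. In the same order it was 0.527 and 0.209 for mitochondrial ribosomal proteins and 0.675 and 0.204 for the proteasome. Cytosolic ribosomal protein genes were lower in shARNT for 70 of 79 and higher for 6 (median -0.57), while 10 were at least 2-fold lower (12.7%, below the 18.8% of all genes). *RPLP0* had 329.7, 319.6 and 306 CPM in shARNT and 823, 863 and 815 CPM in shBMAL1 (-1.39, adjusted p = 7.33e-18). *RPS16* was the furthest higher, with 417, 417 and 379.8 against 218, 231 and 245 CPM (0.81), and here shBMAL1 stood furthest below shControl (507 ± 3.94 CPM). Ribosomal protein genes have many processed copies, so the assignment of their reads is uncertain. Mitochondrial ribosomal protein genes were higher for 48 of 73 and lower for 13 (median 0.33). *MRPS27* had 63.0, 65.8 and 60.9 CPM in shARNT and 15.0, 14.1 and 16.4 CPM in shBMAL1 (2.06), and *MRPS6* had 44.1, 45.8 and 39.2 against 270.3, 285 and 301 CPM (-2.73). These 2 genes differed in opposite directions and each had shControl between its groups. Proteasome genes were higher for 34 of 44 and lower for 8 (median 0.41), with *PSME3* (347, 355 and 366 CPM against 128, 115 and 126 CPM, 1.53), *PSMD10* (1.20) and *PSMD13* (1.12) leading and *PSMD5* (-1.02) the furthest lower.

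Signalling lists showed wide spread rather than a common direction. YAP and TEAD targets had the highest median of the 44 lists (1.02), with 15 of 24 higher in shARNT and 9 lower, and all were called. *CTGF* had 13.0, 13.8 and 16.4 CPM in shARNT and 1.73, 2.32 and 2.09 CPM in shBMAL1 (2.81, SE 0.146, adjusted p = 3.97e-13). *AMOTL2*, an angiomotin that binds YAP, had 179.8, 202 and 210.4 CPM in shARNT and 26.8, 30.1 and 35.8 CPM in shBMAL1 (2.68, adjusted p = 3.12e-17). The LIM protein *AJUBA*, which binds the kinases upstream of YAP, differed by 2.48. These genes did not overlap between the groups. *IGFBP3*, also a member of this list, went the other way and was its furthest lower gene (-5.81). *NT5E*, a cell surface nucleotidase of the same list, was also lower in shARNT (-3.24), without overlap. It had 7.85, 9.61 and 9.68 CPM in shARNT and 86.7, 84.6 and 85.8 CPM in shBMAL1. *F3*, the tissue factor that starts coagulation, differed by -2.44.

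TGF-beta and BMP genes divided into 15 lower and 13 higher of 34. Their median of -0.14 turned to 0.05 under library size alone. The ligand *TGFB1* had 54.9, 56.2 and 56.6 CPM in shARNT and 495, 504 and 497 CPM in shBMAL1 (-3.16, adjusted p = 6.62e-23), and the target *TGFBI* differed by -3.32. The BMP targets *ID1* (107, 116 and 122 CPM against 16.6, 21.3 and 21.3 CPM, 2.54) and *ID3* (1.29) were higher in shARNT. Among EGF receptor ligands and MAPK feedback genes, 17 of 31 were lower and 11 higher (median -0.43). The ligand *TGFA* had 26.6, 23.9 and 26.2 CPM in shARNT and 196, 186 and 226 CPM in shBMAL1 (-2.99), and shControl, at 187 ± 5.86 CPM, was close to shBMAL1. *AREG*, the ligand amphiregulin, had 2.17, 2.40 and 2.47 CPM in shARNT and 51.9, 47.3 and 44.1 CPM in shBMAL1 (-4.34), above the 1.52 ± 0.324 CPM of shControl in both, though reads of its near copy make its level uncertain. The receptor *EPHA2* (1.72) and the phosphatase *DUSP5* (0.89) were higher in shARNT.

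Wnt and Notch genes had medians of 0.04 and 0.22, and that of Wnt genes turned to between -0.03 and -0.02 when shARNT replicate 2 or shBMAL1 replicate 1 or 2 was left out. *WNT5A* had 5.38, 7.0 and 6.25 CPM in shARNT and 0.790, 0.697 and 0.823 CPM in shBMAL1 (3.01, adjusted p = 2.47e-11) and the secreted *DKK3* 37.8, 39.6 and 38.8 against 292, 296 and 301 CPM (-2.94), so members differed in both directions. The receptor *NOTCH1* (1.90) and its ligand *JAG2* (1.39) were higher in shARNT, and the coactivator *MAML2* lower (-2.28). Of 36 axon guidance genes, 18 were lower (50%) and 14 higher (38.9%), against 41.1% and 40.1% of all genes. *SLIT3* (-3.19), *SEMA3A* (-2.78) and *NRP1* (-2.54) were on the lower side and *PLXNB1* (1.18) on the higher. Of 50 primary cilium genes, 22 were lower (44%) and 25 higher (50%). The Hedgehog factors *GLI3* (-2.88) and *GLI1* (-2.60) were lower, and the Hedgehog receptor *PTCH1* (1.19) and the ciliary motor *KIF3A* (1.69) higher. Of 22 AP-1 and immediate early genes, 13 were lower (59.1%), *EGR1* (-3.49) and *EGR2* (-4.76) furthest, and 8 higher (36.4%).

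Antioxidant genes under NRF2, the activator of the response to oxidative stress, were mostly higher in shARNT than in shBMAL1. Of 32 NRF2 antioxidant genes, 23 were higher and 6 lower (median 0.56). *GCLM*, a subunit of the enzyme that starts glutathione synthesis, had 143, 148 and 149 CPM in shARNT and 52.3, 58.5 and 55.2 CPM in shBMAL1 (1.40), both above shControl (37.7 ± 1.52 CPM). *AKR1C1* (1.63) and *AKR1C2* (1.64) are near-identical copies whose reads may have been divided between them. *GPX3* (-1.45) and the ferritin chain *FTL* (-0.67) were lower. Among IGF, insulin and FOXO genes the numbers were even, 8 lower and 8 higher of 19, and the median of -0.14 turned to 0.05 under library size alone and was -0.24 without shBMAL1 replicate 2. The ubiquitin ligase *FBXO32* (69.3 ± 7.71 CPM against 18.6 ± 1.33 CPM, SD, n = 3, 1.90) and *FOXO4* (2.20) were higher in shARNT, and *CITED2*, a competitor of HIF for its coactivator, lower (-3.06). Of 37 ATF4 targets, 20 were lower, led by *TRIB3* (-2.46), and 16 higher, among them *CEBPB* (1.80) and the secreted stress factor *GDF15* (1.53), with a median of -0.16 that turned to 0.03 under library size alone.

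The circadian clock list had no common direction, with 10 of 21 genes lower in shARNT, 8 higher and a median of -0.05, which turned positive under 4 alternatives (0.01 to 0.14). The REV-ERB repressors were its furthest higher members. *NR1D1* (REV-ERBα) had 18.4, 18.1 and 16.6 CPM in shARNT, 5.32, 4.35 and 4.91 CPM in shBMAL1 and 19.6, 18.1 and 20.9 CPM in shControl. The shARNT libraries overlapped shControl in range and the shBMAL1 libraries stood alone below (1.86 between the depletions, SE 0.0966, adjusted p = 3.82e-13). *NR1D2* (REV-ERBβ, chromosome 3, 23986777 to 24022108) had 18.1, 20.9 and 20.8 CPM in shARNT, 2.28, 2.82 and 2.97 CPM in shBMAL1 and 7.18, 6.23 and 6.57 CPM in shControl, so shARNT lay above and shBMAL1 below the control (2.89, SE 0.116, adjusted p = 5.84e-15). *TEF*, an activator of clock output, had 9.97, 8.77 and 9.12 CPM in shARNT and 3.74, 4.27 and 4.50 CPM in shBMAL1 (1.15, adjusted p = 3.58e-08). Against shControl (4.83 ± 0.582 CPM), *TEF* was called higher in shARNT (0.94) and was not called in shBMAL1 (-0.21, adjusted p = 0.178). *NFIL3*, the repressor that competes with TEF and its relatives, went the other way, with 22.7, 22.9 and 30.3 CPM in shARNT and 110.3, 112 and 110.3 CPM in shBMAL1 (-2.13, adjusted p = 1.05e-15).

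Lipid lists were mostly lower in shARNT but had enzymes on both sides. Fatty acid and lipid droplet genes were lower in shARNT for 23 of 27 (median -0.76). The desaturase *SCD* had 135, 146 and 154 CPM in shARNT and 1060, 1045 and 1047 CPM in shBMAL1 (-2.86, adjusted p = 1.96e-21), below the 2554 ± 102 CPM of shControl in both. *FASN*, which makes the fatty acids that SCD desaturates, was higher in shARNT, with 582, 586 and 628 against 265, 251 and 286 CPM (1.16, adjusted p = 2.23e-14). *HILPDA*, a lipid droplet protein, differed by -2.88. In cholesterol synthesis (16 of 24 lower, 5 higher, median -0.70), the regulators *SREBF2* (-1.79) and *INSIG1* (-1.94) and the epoxidase *SQLE* (40.4, 41.3 and 39.8 CPM against 247, 246 and 238 CPM, -2.59) were lower, and the enzyme *FDPS* (0.91) higher.

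Respiratory chain genes (24 lower and 36 higher of 76, median 0.05) rarely differed 2-fold, 1 being lower and 3 higher by that much. *NDUFV1* of complex I (1.57), *ATP5B* of the ATP synthase (1.5) and *CYC1* of complex III (1.14) were those 3 higher genes, and *ATP5G2* (-1.23) the lower one. In the TCA cycle list (10 lower, 16 higher of 28) *IDH3B* (1.64) and *OGDH* (1.08) were higher and *PCK2* (-1.80) and *GLUD1* (-1.42) lower. Of 46 genes for peroxisomes and fatty acid oxidation, 22 were lower, among them *ACADS* (-1.86) and the nuclear receptor *PPARG* (-1.63), and 15 higher, among them *CPT1A* (1.10), which admits fatty acids to the mitochondrion, and the median of -0.18 turned to 0.01 under library size alone. One-carbon and nucleotide synthesis genes split into 16 lower and 13 higher of 33, with *IMPDH1* (-1.69) and *CTPS1* (1.36) furthest on either side and a median of -0.06 that turned to 0.13 under library size alone.

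Genes that moved in opposite directions from shControl were counted from the contrasts of each depletion with shControl, which share the 3 shControl libraries. ARNT depletion lowered and BMAL1 depletion raised 1615 genes (10.4% of those tested), and the reverse held for 1397 (8.98%). Of these, 1033 and 667 were also at least 2-fold apart in the direct contrast. The first class, at 10.4% of all genes, held a larger share of metal handling genes (10 of 19), endoplasmic reticulum chaperones (12 of 29), matrix proteases (10 of 26), complement (11 of 29), collagens (12 of 33), antigen presentation (8 of 24) and integrins and laminins (10 of 36). The second class, at 8.98% of all genes, held 12 of 42 DNA replication genes, 10 of 39 nuclear pore genes, 6 of 24 YAP and TEAD targets, 13 of 59 chromatin modifiers, 11 of 55 splicing genes and 9 of 51 mitotic genes. None of the 79 cytosolic ribosomal protein genes was in either class. Of HIF targets, 8 of 34 were in the first class and none in the second.

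**Figure D4:**
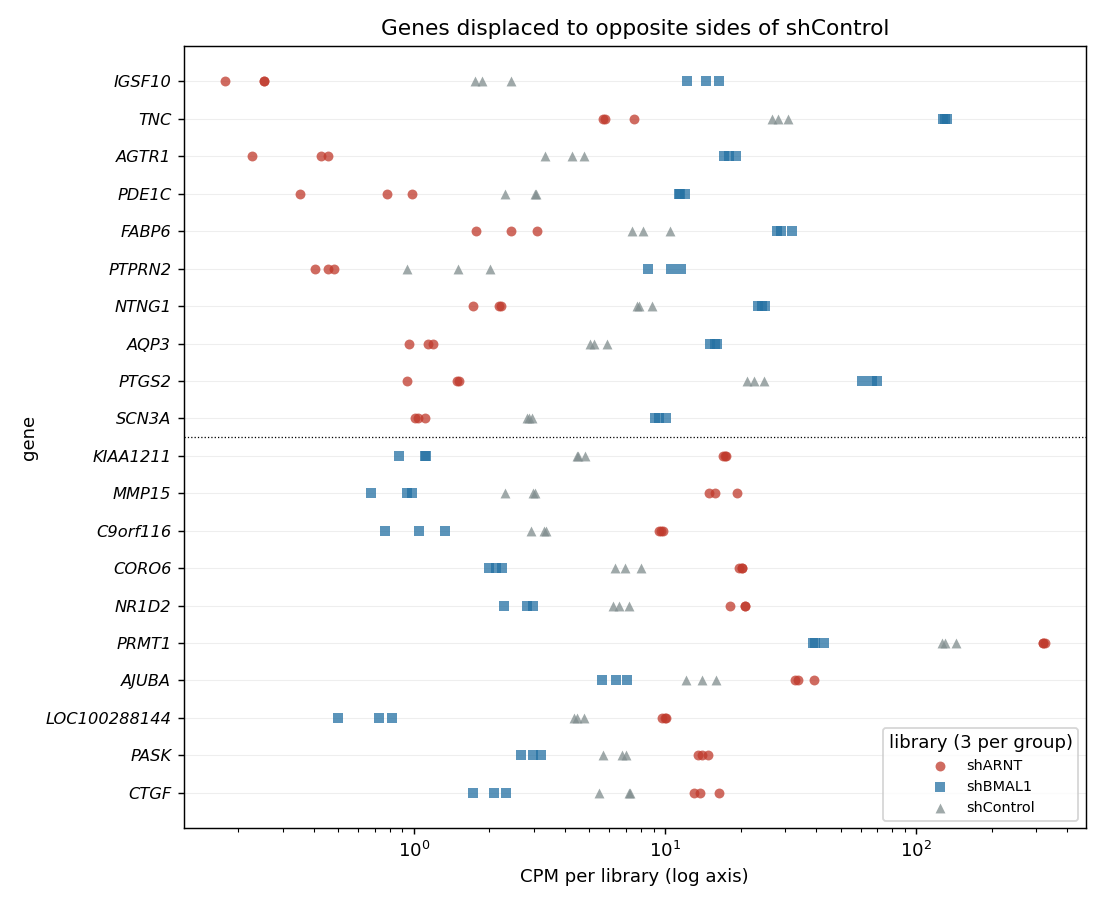
CPM on a log axis in every library for 10 genes below shControl in shARNT and above it in shBMAL1 (over the dotted line) and 10 genes of the reverse pattern (under it) that lay furthest from shControl on both sides. In each row the 3 shControl triangles lie between the 3 shARNT circles and the 3 shBMAL1 squares, a separation that was a condition of the choice.

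The genes displaced furthest to both sides were named by the smaller of their 2 log2 changes from shControl, among genes whose groups did not overlap, so their values describe the pattern they were chosen for. *IGSF10* (chromosome 3, 151143172 to 151178849), a secreted immunoglobulin superfamily protein, was covered by 10, 7 and 10 reads in shARNT, 62, 80 and 58 in shControl and 500, 421 and 559 in shBMAL1. Its log2 changes from shControl were -3.13 under ARNT depletion and 2.84 under BMAL1 depletion. *TNC* changed by -2.18 and 2.19, and *AGTR1* by -3.47 and 2.13. Each of these was over 4-fold away from the control on both sides. *FABP6*, a bile acid binding protein, had 3.10, 1.77 and 2.44 CPM in shARNT, 10.5, 7.38 and 8.20 in shControl and 32.0, 28.9 and 27.8 in shBMAL1. *NTNG1*, a membrane-anchored netrin, had 2.22, 2.17 and 1.71, 7.90, 7.75 and 8.87 and 24.3, 25.1 and 23.5 CPM in the same order. The channel *SCN3A* (-1.45 and 1.73), the phosphodiesterase *PDE1C* (-1.98 and 2.05), *PTPRN2* (-1.72 and 2.78), *AQP3* (-2.29 and 1.55) and *PTGS2* (-4.12 and 1.53) completed the 10, the first value being shARNT and the second shBMAL1.

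On the other side stood *PRMT1* (chromosome 19, 50179043 to 50192286), the main enzyme of asymmetric arginine methylation and the most deeply counted of these 10. It had 324, 320.2 and 320.4 CPM in shARNT, 127, 129.7 and 144 CPM in shControl and 43.0, 39.4 and 38.9 CPM in shBMAL1, with log2 changes of 1.27 in shARNT and -1.73 in shBMAL1. *MMP15* changed by 2.59 in shARNT and -1.67 in shBMAL1, *KIAA1211* (chromosome 4, 56915264 to 57196775) by 1.91 and -2.15, and *CTGF* by 1.12 and -1.70. *PASK*, a kinase with a PAS domain, had 14.8, 14 and 13.5 CPM in shARNT, 6.76, 5.68 and 6.96 in shControl and 3.22, 2.99 and 2.68 in shBMAL1. *NR1D2* (1.58 and -1.31), *AJUBA* (1.33 and -1.15), *CORO6* (1.5 and -1.74), *C9orf116* (1.59 and -1.60) and *LOC100288144* (1.13 and -2.72) were the others, again shARNT first.

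The 2 opposite classes differed in base composition. Their median transcript GC content was 47.2% for genes that ARNT depletion lowered and BMAL1 depletion raised and 51.6% for the reverse, against 48.1% over all genes tested, and their median transcript length was 3855 and 4195 bases against 3776. GC content was known for 94.8% and 96.5% of the classes. With a GC trend removed from each library the classes held 1580 and 1486 genes. The part of GC content in the classes was otherwise not tested.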

How the data were processed

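RNA of A498 cells was sequenced on a BGISEQ-500 instrument in 3 libraries each of shControl, shARNT and shBMAL1. The authors deposited 1 table of expected counts per gene. The methods give assembly and quantification with SeqMan NGen and ArrayStar against GRCh37, while the submitters' processing notes list STAR, DESeq2 and hg38. Which of these made the table is not resolved here, and use of strand is not stated in the sources used here. The value 0.05 was read as 0, fractional counts were rounded, and rows sharing 1 of 45 names were summed, which left 27671 genes, 28 of them dates in place of names.

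Genes passing filterByExpr were fitted with edgeR 4.0.16 in R 4.3.3 over all 9 libraries with TMM scaling (glmQLFit, glmQLFTest), and genes with an adjusted p (Benjamini-Hochberg) under 0.1 were called. A second rule added a fold of at least 2. CPM divided counts by the TMM-scaled library size. Errors are SD over 3 libraries, and replicates differed by more than counting noise (2.12 to 2.45 times the expected chi-square per gene). The scripts were tested on simulated counts. Positions are from GENCODE v44 lifted to GRCh37. Of the names, 21072 matched a current symbol, 1456 an older one and 5143 none.

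The gene lists and the genes compared were chosen with earlier results of these data known. The text names the bHLH-PAS genes *ARNT*, *ARNTL*, *EPAS1*, *HIF1A*, *ARNT2*, *ARNTL2* and *CLOCK*, the 10 called genes furthest lower and higher (average log2 CPM at least 2, no overlap of the compared libraries), the 10 displaced furthest to opposite sides of shControl in each direction, and up to 3 members per list and direction (average log2 CPM at least 1). Alternatives changed the scaling, filter, test, libraries, counts, threshold, GC content and replicates. Motif shares by gene class were not used, since fewer than 80% of genes matched a promoter. A few list members are not reported here by name, and 1 list is not described.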

Additional observations from a re-analysis of the deposited data

Results flagged for a closer look

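Effects of the 2 depletions relative to shControl differed in sign for 1615 genes, lowered by ARNT depletion and raised by BMAL1 depletion, and for 1397 genes of the reverse pattern. The 20 genes named among them were chosen for lying far from shControl on opposite sides with no overlap of libraries, so their direct differences describe them and are no independent test. The log2 differences of shARNT minus shBMAL1 below 0 were -5.97 for *IGSF10*, -5.64 for *PTGS2*, -5.60 for *AGTR1*, -4.51 for *PTPRN2*, -4.37 for *TNC*, -4.03 for *PDE1C*, -3.84 for *AQP3*, -3.60 for *FABP6*, -3.58 for *NTNG1* and -3.18 for *SCN3A*. Those above 0 were 4.26 for *MMP15*, 4.06 for *KIAA1211*, 3.86 for *LOC100288144*, 3.24 for *CORO6*, 3.19 for *C9orf116*, 2.99 for *PRMT1*, 2.89 for *NR1D2*, 2.81 for *CTGF*, 2.48 for *AJUBA* and 2.25 for *PASK*. Groups of 3 libraries are too small to test a single library as standing apart.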

How the results depend on the processing

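The 12630 calls between the depletions became 6831, with 3814 lower and 3017 higher, when tested against a minimum fold of 1.5. Every other alternative kept the counts within 1.5 times, from 12056 at an adjusted p under 0.05 to 13174 without a filter, and from 12332 to 12831 with 1 library left out. Opposite-direction genes numbered 2622 at an adjusted p under 0.05, 2985 under library size alone (1381 lower and 1604 higher in shARNT) and 2716 to 2935 with 1 library left out. Under library size alone the medians of the ATF4 (0.034), clock (0.144), IGF and FOXO (0.046), one-carbon (0.134), peroxisome (0.007) and TGF-beta (0.048) lists changed sign, as did *HIF1A* (0.0807, adjusted p = 0.0766), and *ARNTL2* became called (0.31). The clock median also turned positive with counts halved (0.038), with the GC trend removed (0.007) and without shARNT replicate 1 (0.024), and ranged from -0.134 to 0.024 with 1 library left out. The Wnt median turned negative without shARNT replicate 2 (-0.025) and without shBMAL1 replicate 1 (-0.029) or 2 (-0.023), and ranged from -0.029 to 0.082 with 1 library left out. *HIF1A* lost its call without shARNT replicate 1 (-0.08, adjusted p = 0.136 by the edgeR quasi-likelihood test). Of the 810 list medians recomputed, 115 more moved beyond the spread between libraries without a change of sign, 39 of them under library size alone. Apart from library size alone, moves of over 1.5 times beyond that spread were as follows. The IGF and FOXO median (-0.144) moved to -0.24 and the axon guidance median (-0.378) to -0.236 without shBMAL1 replicate 2, the cytokine median (-0.419) to -0.261 without shARNT replicate 1, and with counts halved the bHLH-PAS median (-0.305) moved to -0.111, the cytokine median to -0.265, the Notch median (0.216) to 0.413 and the one-carbon median (-0.056) to -0.108. The cause of these changes was not tested, and the other named genes kept direction and call.

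The labels number the libraries of each group and state no pairing between groups. Deviations of same-numbered libraries had correlations of -0.173 to 0.277, which cannot decide whether they shared a batch. With the replicate block there were 12591 calls (6364 lower, 6227 higher) and 3020 opposite-direction genes. Libraries held 35269870 to 36099096 counts, and halving them left 12151 calls. The hairpin used against BMAL1 and separate infections are not stated.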
